A study of Mus musculus with 5 samples.

Results

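The clustered protocadherins are 58 genes that lie in 3 neighbouring clusters on mouse chromosome 18. Members were all annotated genes on that chromosome whose symbol starts with Pcdha, Pcdhb or Pcdhg, 58 of the 35099 genes of the annotation. They comprise 14 alpha, 22 beta and 22 gamma genes, among them Pcdhgb8, which the annotation lists as a transcribed pseudogene. On the mm10 build, with 1000 bp added at each side, the alpha cluster covers positions 36929285 to 37189897, the beta cluster 37263998 to 37522419 and the gamma cluster 37660775 to 37842873.

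CpG methylation was measured by bisulfite sequencing of sperm DNA, in which unmethylated cytosines are read as T and methylated cytosines stay C. The mice were of the C57BL/6 strain and carry the label F0, and the labels give no treatment or genetic change. Sperm had been let swim out of the cauda epididymis, the storage end of the duct that leads from the testis. The young group had 3 libraries from mice aged 2 months and the old group had 2 libraries from mice aged 18 months, and the study asked where methylation differs between the ages. Nothing in the labels tells if a library holds the sperm of 1 mouse or of several, nor if somatic cells were removed. Any p-value therefore measures only the spread between these 5 libraries.

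Clustered protocadherins are cadherin-like adhesion proteins of the cell surface, best known from neurons. Each neuron uses its own combination of them, chosen gene by gene through the promoter in front of each variable exon, and methylation of these promoters in the nervous system goes with a silent gene. Alpha and gamma transcripts splice 1 variable exon to constant exons that the whole cluster shares at its downstream end, while each beta gene is a unit of its own. The C-type genes (Pcdhac1, Pcdhac2, Pcdhgc3, Pcdhgc4 and Pcdhgc5) stand closest to the constant exons and are used more evenly across neurons than the others.

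Coverage summed over the listed cytosines was 67774094 to 97769462 in the 5 libraries, so a read counts once for each cytosine it covers. Reads of windows, regions and tiles below are sums over CpGs of this kind. Across the libraries, 2255866 CpGs were listed with 5 or more reads in each (called common CpGs below), 17.3% of the CpGs in the union of the libraries. Their mean level was 88.4% to 89.4%, lowest in young replicate 3 and highest in young replicate 2, and 90.5% on chromosome 18. As a check of the label, the less methylated gene ends of 11 maternally imprinted genes, whose control regions are unmethylated in sperm, averaged 50.8% to 64.1% per library, highest in young replicate 3. Those of 2 paternally imprinted genes averaged 94.7% to 100%. These are gene ends and not the control regions themselves. At the same ends leukocyte genes averaged 58.8% to 73.8%, epididymal epithelium genes 77.5% to 90.6% and spermatid genes 42.1% to 79.0%. Because gene ends and not control regions were used, these values do not give the share of other cells, which was not tested.

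The clusters were less methylated than their chromosome in every library. Their gene starts were the least methylated, and CpGs outside the starts were on average also below the chromosome. Across the alpha cluster, the mean over 335 common CpGs was 71.8%, 71.6% and 71.5% in young sperm and 72.6% and 70.8% in old sperm, with replicates in the order of their numbers here and below. The 2 old libraries lay on either side of all young ones. The beta cluster, over 362 common CpGs, had 73.6%, 72.8% and 74.5% in young sperm and 74.2% in each old library. The gamma cluster was the lowest, with 59.1%, 56.3% and 63.9% in young sperm and 59.6% and 60.6% in old sperm over 185 common CpGs. Over these whole spans each old value of the beta and gamma clusters lay within the young range. The difference of old from young means was 0.05 points in alpha, 0.56 in beta and 0.34 in gamma, while the young libraries of the gamma cluster alone had an SD of 3.82 points. No test was made of these cluster means.

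Start windows, reaching from 1000 bp before to 2500 bp after each gene's start, were lower than the rest of each cluster. The lower coordinate of each gene was taken as its start, since 13 of 14 alpha genes end within 20 bp of 1 position and 21 of 22 gamma genes of another (Pcdha6 and Pcdhgb8 do not). The beta genes were taken to run the same way; the tables used here give no strand for them, and all beta start values rest on this. Inside the start windows the mean over common CpGs was 31.9% in alpha, 61.1% in beta and 34.3% in gamma. Outside them it was 80.5%, 75.7% and 77.0% in the same order. Farther than 5000 bp from any start, the gamma cluster reached 96.7% over 36 CpGs, above the mean of chromosome 18, whereas the alpha cluster stayed at 83.2% over 176 CpGs and the beta cluster at 68.9% over 140 CpGs. Of those beta CpGs, 24 lay in 1 deeply covered tile described below. Outside the beta start windows the ages did not overlap, at 75.5%, 74.8% and 75.5% in young and 76.7% and 76.0% in old sperm. Farther than 5000 bp from any start they did not overlap in beta (difference 2.21 points) or, narrowly, in gamma (1.59 points). They overlapped in all these parts of alpha, inside the beta and gamma start windows, and outside those of gamma.

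The share of CpGs by class shows the same split. In the alpha start windows 42.6% of common CpGs were under 20%, 47.5% lay between 20% and 80%, and 9.84% were at 80% or above, as means of the 5 libraries. The gamma start windows were much alike, with 43.2%, 45.9% and 10.8%. The beta start windows held fewer CpGs under 20%, at 13.0%, and more at 80% or above, at 39.1%. Their common CpGs lie elsewhere, however. In beta 12 of 46 were in the last 500 bp before the start and 24 in the 500 bp before that. In alpha 32 of 61 and in gamma 44 of 74 were in the last 500 bp. Over all listed CpGs the start window means were closer, at 24.2% in alpha, 38.3% in beta and 30.4% in gamma. Even outside the start windows, 31.5% to 36.1% of the clusters' CpGs were intermediate, against 9.42% on chromosome 18 as a whole.

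**Figure D1:**
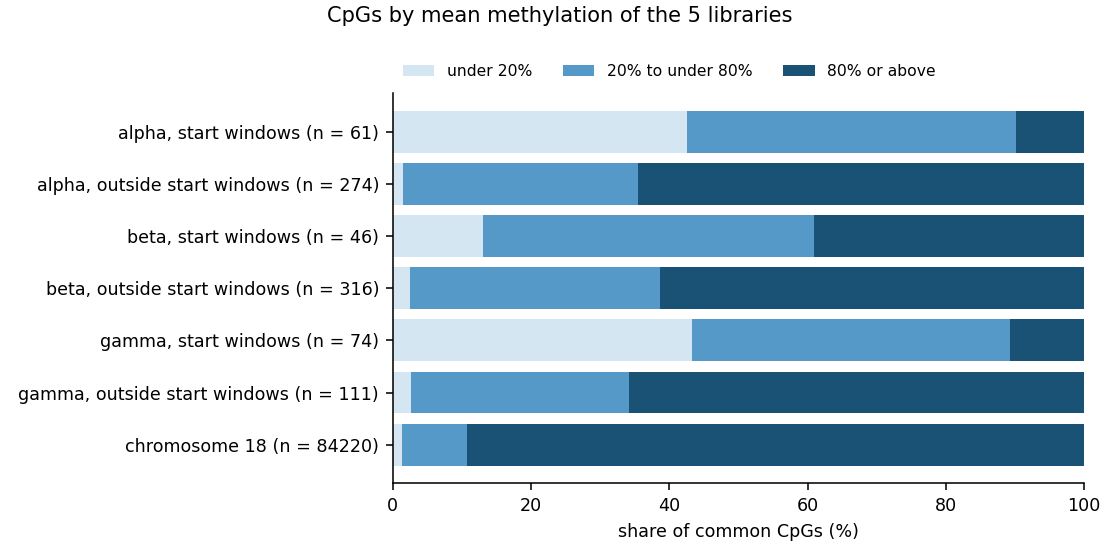
Share of common CpGs (x axis, percent) with a mean methylation under 20%, from 20% to under 80%, or at 80% or above, inside and outside the start windows of each cluster and on chromosome 18, with the number of CpGs in brackets. The alpha and gamma start windows hold over 40% of CpGs under 20%, the beta start windows 13.0%, and chromosome 18 holds 1.30%. Of the 46 beta CpGs, 24 lie from 1000 to 500 bp before the start.

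Methylation fell within the last kilobase before the start and was high again from 3500 bp after it. Few common CpGs lie after the starts, so the profile uses every CpG listed in a library, and the CpGs behind a point differ between libraries. In the alpha cluster the mean over libraries was 83.9% from 1500 to 1000 bp before the start, 56.1% in the next 500 bp and 17.0% in the last 500 bp. It stayed at 13.9% in the first 500 bp after the start and was 89.5% from 3500 to 4000 bp. The gamma cluster fell from 63.9% to 19.8% over the last kilobase and to 11.8% just after the start, the lowest bin of the profile. Its upstream flank was already at 63.7% to 66.2% from 2000 to 1000 bp before the start, where starts stand close together. After its lowest bin, gamma was at 37.1% from 1000 to 1500 bp after the start and 48.2% from 2500 to 3000 bp. The beta cluster fell later and less far, from 76.5% to 35.4% across the last kilobase. It was higher again from 500 to 1000 bp after the start, at 49.9%. Its lowest bins were from 1500 to 2500 bp after the start, at 21.6% and 21.1%.

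Libraries also differed inside the dip. From 1500 to 2000 bp after the alpha starts, young replicate 3 had 39.5% and young replicate 2 had 16.0%, with old values of 16.7% and 34.5% in between. In the same bin of the beta cluster young replicate 3 again had the highest value, 32.1%, and old replicate 1 the lowest, 13.5%. In the alpha cluster young replicate 3 was above the other libraries in each of the 500-bp bins from 500 bp before to 3500 bp after the start. The old libraries of the alpha cluster were inside the range of the young ones in most of these bins. In beta the ages did not overlap in the last 500 bp before the start (difference 7.90 points). From 500 to 1000 bp after it, beta had 53.5%, 70% and 54.8% in young sperm and 27.8% and 43.1% in old sperm, with 0 common CpGs. From 2500 to 3000 bp the ages did not overlap in beta (-6.15 points) or gamma (15.4 points). No test was made of these bins.

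**Figure D2:**
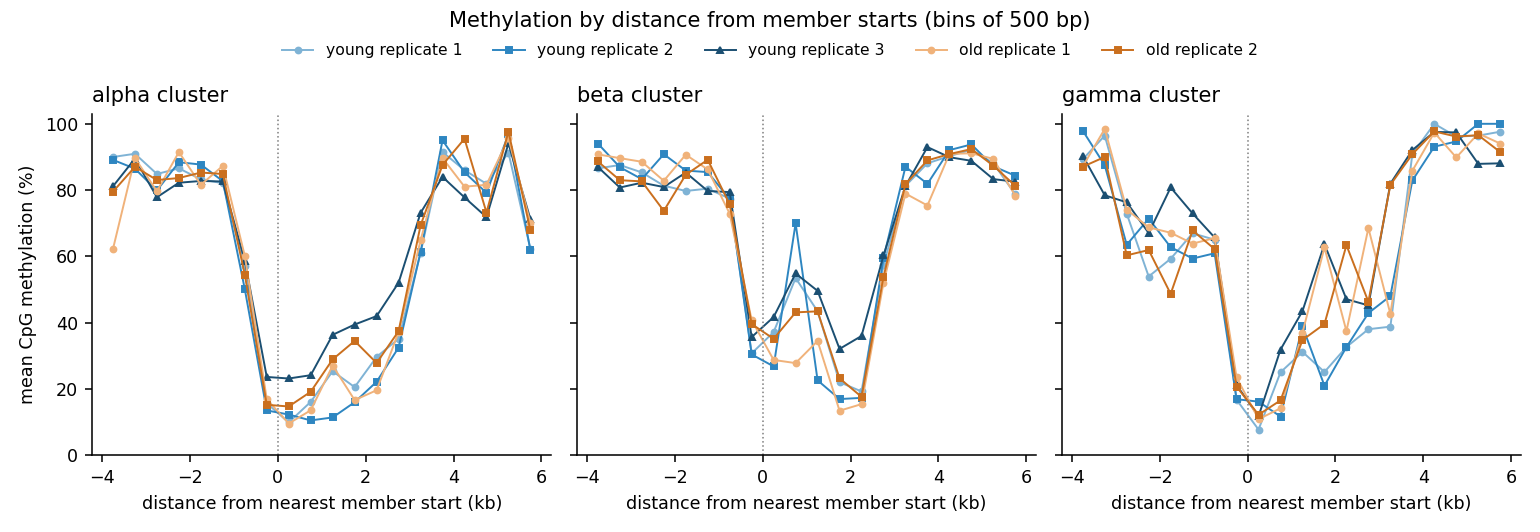
Mean CpG methylation (y axis, percent) by distance from the nearest member start (x axis, kb, bins of 500 bp) in each cluster, 1 line for each library, over all CpGs listed in that library. All 5 lines fall at the start and are at 75.4% or above from 3500 to 4000 bp after it, where all but 1 beta line are over 80%, and young replicate 3 runs highest through the alpha dip.

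All 58 start windows had listed reads in all 5 libraries, and they spanned nearly the whole scale of methylation. Mean levels over the listed reads ran from 17.5% to 52.8% in alpha (median 28.2%), from 15.8% to 74.3% in beta (median 37.3%) and from 3.84% to 92.5% in gamma (median 35.0%). Under 50% were 13 of 14 alpha, 15 of 22 beta and 18 of 22 gamma windows, 79.3% in all. Over the 34152 start windows of all genes, which include both ends of genes of unknown strand, the share was 24.5%. Across members, the number of listed CpGs and the level of a window had a Pearson's r of -0.37 in alpha, -0.35 in beta and -0.68 in gamma, and a Spearman's rho of -0.18, -0.18 and -0.52. This is a description across 14, 22 and 22 genes that share the same libraries.

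**Figure D3:**
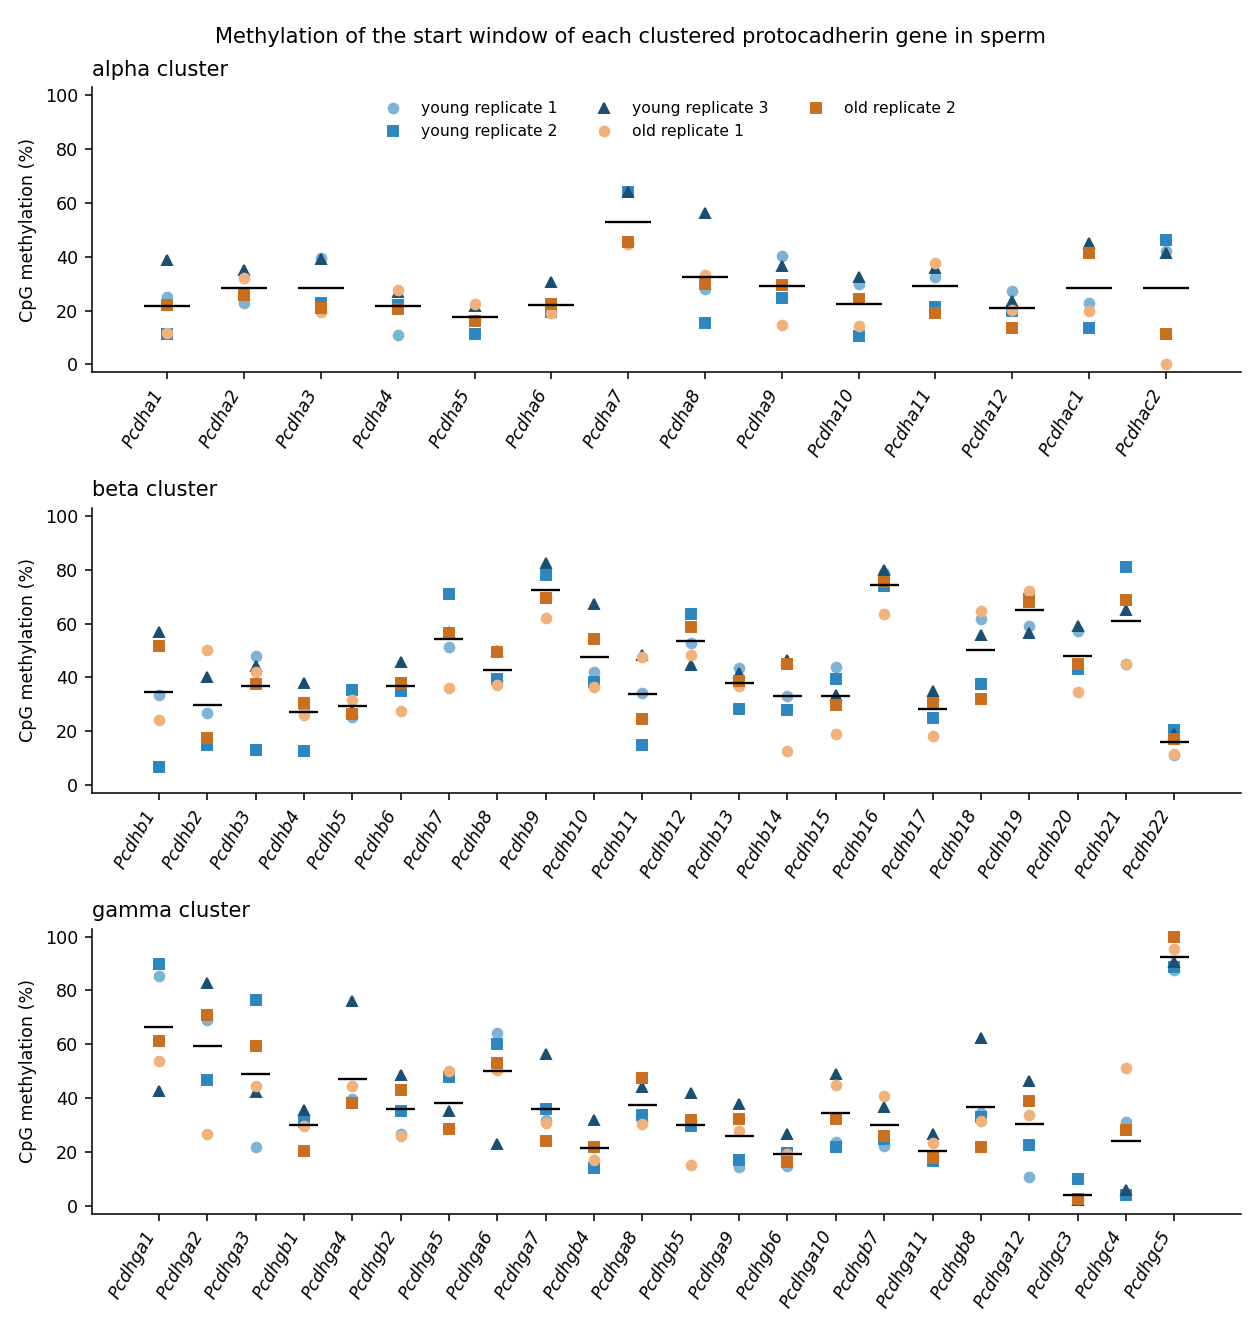
Methylation (y axis, percent of reads) of each member's start window in the 5 libraries, over all CpGs listed in a library, with genes in their order along the cluster and a bar at the mean of the libraries. Most bars lie between 15% and 60%; Pcdhgc3 has the lowest, 3.84%, and Pcdhgc5 the highest, 92.5%.

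The C-type genes took both ends of the range. The start window of Pcdhgc3, the first of the gamma C-type genes, had 2.13%, 10% and 2% in young sperm and 2.44% and 2.63% in old sperm, where 20 to 141 reads were listed. That of Pcdhgc5, the last of them, had 87.7%, 88.7% and 90.7% in young sperm and 95.2% and 100% in old sperm, on 5 to 57 reads. The 5 reads of old replicate 2 allow 47.8% to 100% (exact 95% binomial interval, counting error only, each count taken as independent). Both old values of Pcdhgc5 exceeded the young ones, but no CpG of its window was common to all libraries, so it was not tested.

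Pcdhgc4, which stands between them, had 31.2%, 3.90% and 5.88% in young sperm and 51.3% and 28.0% in old sperm. The groups overlapped through young replicate 1. Pcdhac1, the first alpha C-type gene, had 23.0%, 13.3% and 45.0% against 19.7% and 41.2%, with each old value inside the young range. Pcdhac2 had 42.1%, 46.2% and 41.4% in young sperm and 0% and 11.3% in old sperm, on 26 to 87 reads of CpGs that differ between libraries. The 0 of 65 reads in old replicate 1 allow a level of up to 5.52% (upper bound of the same exact interval; 4.62% by the limit of 3 counts). None of the 35 CpGs listed in the Pcdhac2 window was listed in both old and at least 2 young libraries, so the gap in its values compares different CpGs.

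Among the other alpha genes, Pcdha5 had the lowest window, with 16.3%, 11.1% and 21.8% in young sperm and 22.3% and 16.2% in old sperm. Pcdha7 had the highest, with 45.5%, 63.9% and 64.2% against 44.7% and 45.6%. In beta, the lowest window was that of Pcdhb22, with 11.01%, 20.5% and 18.8% against 11.5% and 17.2%. Pcdhb9 and Pcdhb16 were the most methylated beta windows, at means of 72.4% and 74.3%. Pcdhb9 had 69.8%, 78.1% and 82.4% in young sperm and 62.2% and 69.5% in old sperm, so that its groups did not overlap, narrowly. Over all listed CpGs 8 of the 58 member windows had no overlap (13.8%), beside 17.1% of all 34152 start windows. Old sperm was the lower in 7 of those 8 members, and in 3221 of the 5839 such windows of all genes.

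Common CpGs, the same in all libraries, allowed a test for 22 of the 58 start windows (7 alpha, 6 beta, 9 gamma). The others had fewer than 3 such CpGs. Their median level was 37.9% and the median of all 12553 start windows tested was 89.6%. These include both ends of genes of unknown strand. Over common CpGs the libraries also varied more. The median SD over the 5 libraries was 7.31 points in the members and 3.38 in all windows, or 5.29 in the 2500 windows under 50%. Read depth in a member window ranged from 22 reads in Pcdha10 to 944 reads in Pcdhgb4. Over all listed CpGs the median SD was 9.92 points in the 58 members and 6.86 in all windows. Among windows under 50% the order was the reverse there, at 9.76 points in 46 members and 13.1 in all 8379.

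The deepest window was that of Pcdhgb4, a gamma gene of the B subfamily, with 19 common CpGs and 757 to 944 reads per library. It had 22.5%, 13.6% and 32.7% in young sperm and 17.4% and 23.1% in old sperm. Young replicates 2 and 3 formed its extremes, with both old libraries between them. Of its 19 CpGs, 12 were under 20% on average and 3 were at 50% or above, and single CpGs ran from 1.05% to 94.0%.

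Pcdhga11, Pcdhga9 and Pcdhga10, also of the gamma cluster, had the same extremes. Pcdhga11, with 8 common CpGs and 230 to 329 reads, had 19.6%, 18.1% and 32.8% against 22.7% and 20.1%. Pcdhga9 had 19.2%, 15.6% and 41.8% against 16.8% and 32.5%. In Pcdhga10, 27.1%, 25.7% and 46.5% stood against 45.7% and 31.0%. In each of these windows young replicate 3 was highest and young replicate 2 lowest.

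In the alpha cluster, Pcdha5 (13 common CpGs) had 18.99%, 12.5% and 21.2% in young sperm and 23.95% and 14.97% in old sperm. Pcdha6 (14 common CpGs) had 25.5%, 16.5% and 27.6% against 18.8% in each old library. Pcdha2 (10 common CpGs) had 27.7%, 29.6% and 36.6% against 34.3% and 33.8%. The groups overlapped in all of them. Relative to the start, the CpGs lie from -816 to -192 bp in Pcdha2 and from -577 to 1093 bp in Pcdha5.

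Beta windows with common CpGs were higher and also overlapped. Pcdhb8 (11 common CpGs) had 41.1%, 39.5% and 53.3% in young sperm and 46.0% and 53.8% in old sperm. Pcdhb7 (8 common CpGs) had 83.6%, 88.8% and 80.2% against 71.9% and 85.9%. Both were intermediate to high in every library. Pcdhb13 (4 common CpGs) had 34.4%, 19.2% and 37.3% against 19.1% and 29.5%. Pcdhb21, the most methylated member window tested, had 82.4%, 93.0% and 94.1% against 87.5% and 78.6% on 3 CpGs.

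**Figure D4:**
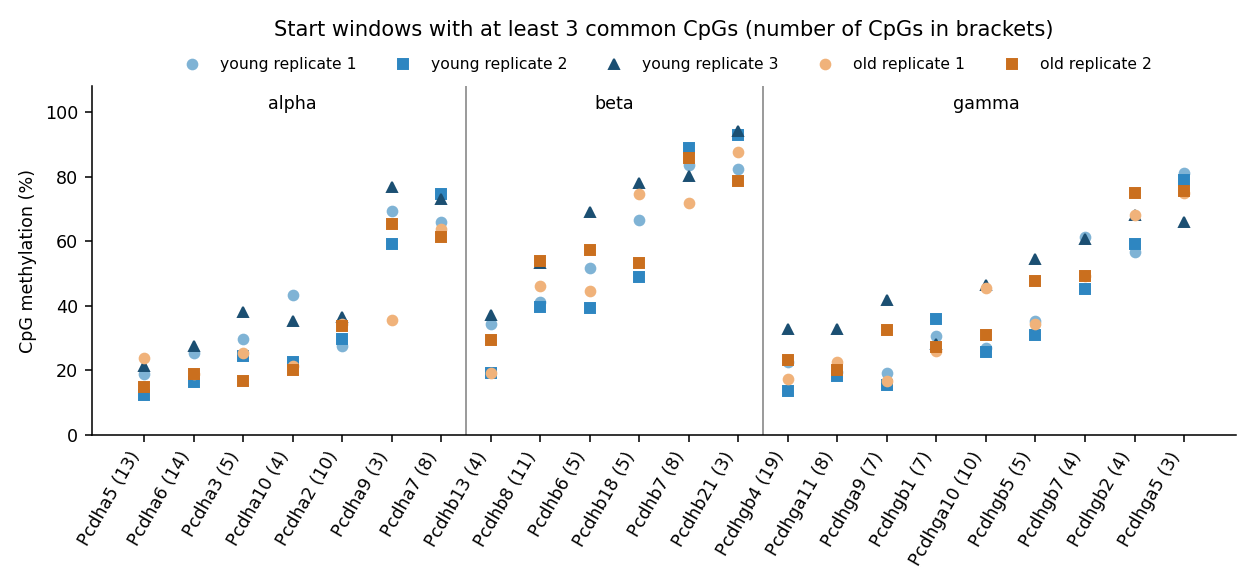
Methylation (y axis, percent of reads) of the 22 start windows with at least 3 common CpGs, by cluster and in order of mean level, with the number of common CpGs in brackets and 1 marker for each library. Young replicate 3 is the highest marker in 13 of the 22 windows and young replicate 2 the lowest in 11. Old replicates 1 and 2 are each the lowest in 4, and the highest in 1 and 2.

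No start window passed the test of old against young, in the members or elsewhere. A quasi-binomial model of methylated and unmethylated reads was fitted over all 12553 windows, and windows were called where the Benjamini-Hochberg adjusted p was under 0.05 and the ages were 10 points or more apart. It called 0 windows (percent called: 0) and 0 of the 22 members, and limma on log2 odds also called 0. At an unadjusted p under 0.05, 334 windows (2.66%) and 0 of the 22 members passed, and every member had an adjusted p of 1. On simulated data the test recovered 36.0% of start windows lowered by 20 points and 75.0% of those lowered by 30 points. A difference of 20 points in a single simulated window was thus usually missed. Only windows above 50% were lowered, with a spread between libraries typical of all windows. Of the 22 member windows 13 were under 50%, and over common CpGs the members varied more between libraries. The recovered shares thus do not give the power for the members.

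Of the 22 member windows 16 had a lower mean in old than in young sperm (5 of 7 alpha, 5 of 6 beta, 6 of 9 gamma), with a median difference of -2.59 points. Over all start windows 48.2% were lower. The count rested on 1 library: without young replicate 3, 11 of 22 were lower and the median difference was -0.00045 points. With only 500 bp on either side of the start, 5 of the 12 windows that could be measured were lower. With all listed CpGs 36 of 58 windows were lower, and with the 35 windows that had CpGs listed in both old and at least 2 young libraries, compared over those CpGs, 19 were.

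Young replicate 3 was highest in 13 of the 22 member windows (59.1%) and young replicate 2 lowest in 11 (50%). Over all start windows the shares were 19.9% and 20.4%, and over the 2500 start windows under 50% they were 42.3% and 37.2%. The 13 member windows under 50% had young replicate 3 highest in 9 and young replicate 2 lowest in 8. The same 2 libraries held the lowest and highest mean of the whole genome, in the opposite order.

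In 3 of the 22 windows the values of the ages did not overlap, with 15.7% of all start windows doing so. All 3 were lower in old sperm, and 7.58% of all start windows had no overlap in that direction. Pcdha7 had 65.9%, 74.6% and 73.0% in young sperm and 63.8% and 61.2% in old sperm, a difference of -8.64 points over 8 common CpGs. Pcdha10 had 43.3%, 22.7% and 35.2% against 21.4% and 20%, on 22 to 54 reads. Pcdhgb1 had 30.7%, 35.8% and 28.2% against 26.2% and 27.2%. The Pcdha7 difference turned to 3.15 points when 9 CpGs listed in both old and at least 2 young libraries were each counted once, and that of Pcdhgb1 to 1.5 points over its 7.

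Whole gene regions, the gene span with 1000 bp at each side, could be tested for 51 members (14 alpha, 18 beta, 19 gamma). Exons of these genes were not given, so the span stands in for the first exon. The alpha and gamma spans run to or near the shared end of their cluster, so that their values repeat the same CpGs and are not separate observations. Over all 24021 gene regions the model called 0 (percent called: 0), and it called 0 of the 51 members. At an unadjusted p under 0.05, 442 regions (1.84%) and 0 members passed. Of the 51 members 25 were lower in old sperm, beside 46.6% of all regions. By cluster these were 0 of 14 alpha, 10 of 18 beta and 15 of 19 gamma regions, where the alpha and gamma regions repeat the same CpGs. limma called 0 of the regions, with 856 at an unadjusted p under 0.05 and 1 of them a member. In the simulation 73.5% of regions lowered by 20 points were recovered.

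The nested alpha regions were more methylated toward the innermost genes. Pcdha2, whose region was the lowest, had 73.7%, 73.3% and 73.1% in young sperm and 74.8% and 73.3% in old sperm, and Pcdha1 was alike at a mean of 73.8%. Pcdha12 had 81.3%, 79.6% and 79.6% against 82.0% and 80.5%, a difference of 1.11 points and the smallest unadjusted p in the cluster, 0.173. Pcdha11 followed at a difference of 1.05 points and Pcdha5 at 0.85. Pcdhac1 and Pcdhac2, the shortest regions, were the most methylated, at means of 89.0% and 88.4%. Young replicate 3 was lowest in all 14 alpha regions.

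In the gamma cluster only the regions of Pcdhgb8 and Pcdhga12, among the 19 tested, were above 70%. Pcdhga7 and Pcdhgb4 had the lowest regions, both at a mean of 56.9%, with 55.4%, 54.1% and 61.1% against 56.3% and 57.4% for Pcdhgb4. Pcdhgb7 had 65.8%, 64.0% and 67.8% in young sperm and 64.7% and 65.9% in old sperm. Pcdhgb8 and Pcdhga12 were at means of 95.2% and 96.0%, with 2 and 1 common CpGs in their start windows. Pcdhgc3, Pcdhgc4 and Pcdhgc5 had too few common CpGs for a test. Young replicate 3 was highest in 17 of the 19 gamma regions.

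Beta regions do not share CpGs in this way and varied the most from gene to gene. The lowest was that of Pcdhb13, with 37.2%, 24.2% and 40.7% in young sperm and 30.1% and 33.2% in old sperm on 487 to 755 reads. Pcdhb8 followed at a mean of 47.7%. The most methylated were Pcdhb16, at a mean of 92.6% on 21 to 34 reads, and Pcdhb14, with 89.4%, 92.6% and 88.9% against 89.4% and 88.4%. Both are known, as all beta genes are, as cell surface adhesion proteins without the shared constant end of the alpha and gamma proteins.

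Pcdhb9 had the smallest unadjusted p of the beta regions, 0.104. It had 88.0%, 89.6% and 89.1% in young sperm and 84.7% and 80.6% in old sperm, a difference of -6.25 points over 6 common CpGs, and its groups did not overlap. Pcdhb17 had 53.4%, 51.3% and 71.4% in young sperm and 51.8% and 50.7% in old sperm. Its difference of -7.48 points came with young replicate 3 alone far above the other libraries. Pcdhb21 had the same CpGs and values as in its start window. Regions of 4 beta genes (Pcdhb3, Pcdhb5, Pcdhb9 and Pcdhb18) had groups that did not overlap, 2 higher and 2 lower in old sperm, and no alpha or gamma region had. Over all gene regions 14.2% had no overlap, and 6.61% had none with old sperm lower.

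In 1 kb tiles, the low CpGs of the clusters appeared as short stretches at the starts. The clusters held 127 tiles with at least 3 common CpGs (54 alpha, 50 beta, 23 gamma). Of these, 24 (18.9%) had a mean under 50%, compared with 3.11% of all 321659 tiles. A start window was touched by 8 of the 10 low tiles in alpha, 4 of 6 in beta and 8 of 8 in gamma. The median of tiles that touched a start window was 44.9% in alpha, 69.9% in beta and 40.6% in gamma, and of the others 84.2%, 86.8% and 95.4%.

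**Figure D5:**
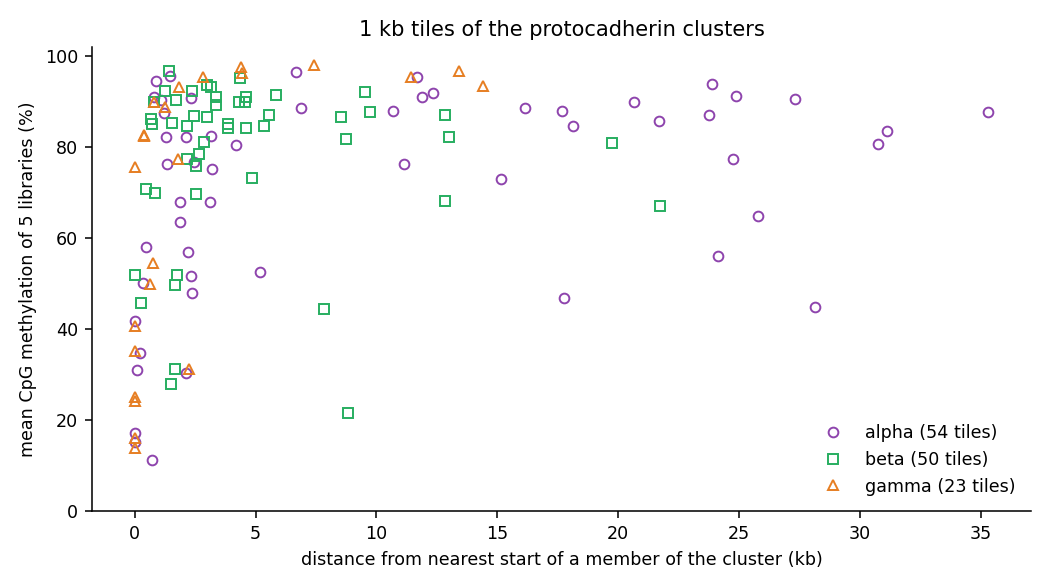
Mean methylation of the 5 libraries (y axis, percent) of each 1 kb tile in the clusters against its distance from the nearest member start of the same cluster (x axis, kb), with clusters by marker. Tiles under 30% lie within 2 kb of a start except for the beta tile at 8.84 kb, which has 21.6%.

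The lowest tiles sat at the starts of a few genes. In alpha these were the tile at 36961001 to 36962000 in the Pcdha5 window, at a mean of 11.4%, and that at 36967001 to 36968000 at the start of Pcdha6, at 15.2%. In gamma they were the tile at 37680001 to 37681000 at the start of Pcdhgb1, at 13.8%, and that at 37720001 to 37721000 at the start of Pcdhgb4. The Pcdhgb4 tile held 16 common CpGs and 700 to 840 reads and had 16.2%, 8.98% and 25.8% in young sperm and 11.6% and 18.0% in old sperm. Its old libraries both lay between young replicates 2 and 3.

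The lowest beta tile was not at a gene start. It lies at 37285001 to 37286000, 8840 bp before the start of Pcdhb2, and held 24 common CpGs with 2563 to 3168 reads per library. The median beta tile had 54.0 to 79.5 reads, but these are sums over CpGs, and the other beta tiles held at most 10. The lowest tile had values as follows. It had 22.0%, 10.2% and 30.9% in young sperm and 20.7% and 23.9% in old sperm. All 24 CpGs were between 14.3% and 36.3% on average, unlike the Pcdhgb4 window with its mix of low and high CpGs. Young replicate 3 was highest at 19 of the 24 and young replicate 2 lowest at 23. A gamma tile at 37759001 to 37760000 held 1469 to 1763 reads on 7 common CpGs, at a mean of 77.5%. Whether the depth of the beta tile bears on its level was not tested. The tile that follows it, also away from a start, was at a mean of 44.4%. The second lowest beta tile, at 37444001 to 37445000 in the Pcdhb13 window, was at a mean of 27.9%.

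In the test of old against young, cluster tiles passed at a share near that of all tiles. Of the 321659 tiles 0 were called (percent called: 0) by the quasi-binomial model and 0 by limma. At an unadjusted p under 0.05, 10615 tiles (3.30%) passed, among them 3 of the 127 cluster tiles (2.36%). Power was low here, with 3% of tiles lowered by 20 points and 10% of those lowered by 30 points recovered in the simulation. Of the 127, 65 were lower in old sperm, beside 47.2% of all tiles. In 17 of the 127 the groups did not overlap (13.4%), against 17.0% of all tiles.

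The 3 cluster tiles under that threshold were these. The tile at 36970001 to 36971000, at the end of the Pcdha6 window, had 66.7%, 42.9% and 59.3% in young sperm and 32.8% and 38.1% in old sperm, on 39 to 81 reads, the largest difference of the 3 at -20.8 points. The tile at 37375001 to 37376000, 19730 bp from the start of Pcdhb8, had 82.7%, 75.0% and 76.6% against 84.2% and 86.0%. The tile at 37115001 to 37116000, inside the alpha cluster beyond Pcdhac1, had 91.3%, 89.6% and 87.1% against 92.7% and 95.8%. The groups did not overlap in any of them, and each had an adjusted p of 1.

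The tiles next in rank had larger p. In alpha, the tile at 37179001 to 37180000 within Pcdhac2 had a difference of -10.5 points. In beta, the tiles at 37397001 to 37398000 before Pcdhb9 and at 37452001 to 37453000 beyond Pcdhb14 had differences of 5.91 and 3.06 points. In gamma, the tiles with the smallest p were at 37792001 to 37793000 before Pcdhgc3 (2.97 points), 37683001 to 37684000 before Pcdhga4 (-10.1 points) and 37711001 to 37712000 before Pcdhga7 (3.65 points). All of these gamma tiles had means of 88.9% or above.

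The shared downstream ends, where the constant exons are, were covered thinly. From 2500 bp before to 1000 bp after the common alpha end, 29 listed CpGs gave 92.1%, 84.4% and 90.2% in young sperm and 95.4% and 88.7% in old sperm. At the gamma end 19 listed CpGs gave 60%, 100% and 47.3% against 50% and 63.7%. None of these gamma CpGs was common to all libraries, and the spread between young libraries covered both old values.

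Related and neighbouring genes were described in the same way. Of 12 non-clustered protocadherins, adhesion genes scattered over the genome, 9 regions were tested; their median level was 91.7%, near the 92.9% of all gene regions and above the 74.8% of the clustered members. In old sperm 5 were higher and 4 lower, with 0 called. Regions of 17 genes that regulate chromatin at the clusters, such as Ctcf, the cohesin gene Rad21 and the silencing factor Smchd1, had a median of 90.7%, with 9 higher, 8 lower and 0 called. Regions of 5 signalling partners, among them the kinases Fyn and Ptk2, had a median of 94.3%, with 4 higher, 1 lower and 0 called. Of 22 other genes in the clusters or within 200000 bp of them, 14 were tested, with a median of 88.1%, 6 higher, 8 lower and 0 called. The 3 of these inside the alpha cluster (Gm37013, Gm38666 and Gm38667) overlap members and repeat their CpGs. The 11 tested outside the clusters had a median of 90.3%, with 3 higher and 8 lower.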

How the data were processed

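Tool names come from the submitters' processing notes: Bismark 0.16.3, methylKit 1.4.0 and Trim Galore 0.4.3, on the mm10 (GRCm38) build. How they were set and how duplicate reads were handled is not given in the sources used here. Per the file headers, the authors' deposited tables give, for each cytosine and strand, the coverage as a count of reads and the percent of those reads that were C or T. No cytosine listed had under 5 reads, so a CpG absent from a library is one below that coverage on each strand. Its reads over both strands may still reach 5. Percent times coverage gave whole reads for 100% of cytosines. Bisulfite reads do not tell a C-to-T variant or incomplete conversion from methylation states.

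Strands were summed for each CpG. Common CpGs had at least 5 reads in all 5 libraries, which holds for every CpG listed in all of them, with means of 21.6 to 28.1 reads per library. Cluster levels are means over CpGs; levels of windows, regions and tiles are sums of methylated reads over sums of reads. Gene positions are those of a RefSeq table for this build that lists no exons, and sequences of these genes were not used here. Strand came from a RefSeq promoter table for 27083 genes. For the members the lower end was used, and for other genes without a strand both ends.

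Features with at least 3 common CpGs were compared between ages with a quasi-binomial logistic model, its dispersion moderated with squeezeVar of limma 3.58.1 in R 4.3.3 and not let under 1, with Benjamini-Hochberg adjustment over all features of a table. The test was tried on simulated data in which 200 features were lowered. Other steps ran in Python 3.11.15 with pandas 2.3.3, numpy 2.4.6 and scipy 1.17.1, and figures in matplotlib 3.10.9. Counts vary by read sampling as well as between libraries, and reads are not independent molecules. Alternatives were a binomial model, limma on log2 odds, other coverage limits, CpG minimums and widths, leaving out a library, and a block for the replicate number.

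Genes named are the C-type genes, in each cluster the 3 regions with the smallest p and the 2 lowest and 2 highest in level, Pcdha7 and Pcdhga10; other start windows named were chosen after their values were seen, for depth, extremes or groups that do not overlap. In each cluster the 3 tiles with the smallest p and the 2 lowest are named. The members and gene lists were chosen with earlier results of these data known. The lists were maternally and paternally imprinted, leukocyte, epididymal epithelium, spermatid, non-clustered protocadherin, regulator, signalling partner and neighbouring genes.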

Additional observations from a re-analysis of the deposited data

How the results depend on the processing

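No alternative made a call among the members, and the binomial model, which leaves out the spread between libraries, made calls elsewhere: 71 gene regions, 67 start windows and 714 tiles. Taking an unadjusted p under 0.05 alone gave 442 regions. Leaving out each library in turn left 0 calls in all 3 tables. The difference of the alpha cluster ranged from -0.867 to 0.969 points over those fits, that of beta from 0.152 to 1.0 and that of gamma from -1.39 to 2.39 points. With every listed CpG the difference was -3.63 in alpha and -3.76 in beta. The ages overlapped in that alpha comparison and did not in the beta one. The beta difference was 1.45 with reads summed, -1.37 as a mean over member regions and -2.74 in start windows only, the last chosen after seeing the data. The number of member start windows lower in old sperm ranged from 11 to 17 with 1 library left out and was 36 of 58 with every listed CpG, also chosen after seeing the data.

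The 21 named regions were refitted under 236 alternatives; 200 kept their direction, 36 turned, and 0 passed the threshold, with a smallest adjusted p of 0.236. With every listed CpG, the turned differences were -1.37 (Pcdhac1), -1.45 (Pcdhac2), -0.766 (Pcdha7), -1.43 (Pcdha2), -1.99 (Pcdha1), -5.11 (Pcdhb8), 1.37 (Pcdhb14), -4.98 (Pcdhb16) and -2.89 (Pcdhgb8). With 10 reads they were -1.34 (Pcdhac2) and -0.319 (Pcdhb8). With the deepest CpGs left out they were 0.207 (Pcdhga10), 0.701 (Pcdhgb4) and 0.659 (Pcdhga7). In the start window they were -8.64 (Pcdha7) and 5.20 (Pcdhga10).

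Over the fits that left out 1 library, the ranges of regions that turned were -1.30 to 1.67 (Pcdhac1), -0.323 to 0.948 (Pcdhac2), -1.46 to 0.615 (Pcdhga10), -0.041 to 1.48 (Pcdha2), -0.073 to 1.36 (Pcdha1), -7.27 to 0.966 (Pcdhb13), -1.06 to 8.94 (Pcdhb16), -0.046 to 1.59 (Pcdhgb8), -0.182 to 1.44 (Pcdhga12), -1.58 to 0.346 (Pcdhgb7), -1.40 to 2.09 (Pcdhgb4) and -1.41 to 2.05 (Pcdhga7). The cause was not tested.

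The labels do not say if replicate numbers pair the libraries. Deviations from the group means over tiles correlated at 0.0094 for number 1 and -0.020 for number 2. With 2 old libraries, their deviations mirror each other, so these values cannot decide on a pairing. The fit with the replicate block, in which young replicate 3 is fitted exactly and adds nothing, called 0 regions, 0 start windows and 0 tiles. The differences recorded for it are plain differences of means over replicates 1 and 2, the same values as without young replicate 3. They turned for Pcdhac1 (-1.30), Pcdhga10 (0.615), Pcdhb13 (0.966), Pcdhgb7 (0.346), Pcdhgb4 (2.09) and Pcdhga7 (2.05). These turns repeat those without young replicate 3 and are counted under both settings above.

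Depth limits the members most after their starts, where few CpGs were listed in every library, so 36 of 58 start windows could not be tested. The listed reads compare different CpGs between libraries, and the labels do not separate mice from repeat libraries.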
